A study of Mus musculus with 6 samples.

Results

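Genes of DNA damage signalling and DNA repair were measured in bone marrow (BM) RNA of mice with T-ALL, a leukemia of T-cell precursors. The 37 members are named genes: 8 of checkpoint and damage signalling, 12 of homologous recombination, 1 of end joining, 5 of the Fanconi pathway, 3 of mismatch repair, 4 of base excision repair and 4 of nucleotide excision repair. They were found by symbol among the 54532 genes of the deposited table. Donor cells carried Vav1-Cre with the floxed Phf6 fl/y allele (Phf6 KO, 3 libraries) or Phf6 fl/y without Cre (Phf6 WT, 3 libraries). Vav1 drives Cre across blood-forming cells from before birth, so the deletion is not restricted to T cells. Lineage-negative BM cells of these male donors were transduced with a retrovirus carrying JAK3 M511I, an activating form of a Janus kinase, and an IRES-GFP cassette, and were transplanted into lethally irradiated male mice. All 6 libraries therefore carry JAK3 M511I, come from C57BL/6 animals and were taken on day 100 after transplantation. The comparison asks how the absence of Phf6 changes expression in JAK3 M511I leukemia. The labels name the tissue only as BM and do not say that GFP-positive cells were sorted, and they do not state that the 3 libraries of a group came from separate mice, so p-values measure the spread between these libraries.

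Cells answer broken or stalled DNA with kinases of the Atm and Atr branches, which arrest the cell cycle through Chek1 and Chek2. Double-strand breaks are then mended by homologous recombination with the sister chromatid as template or by direct joining of the ends, the Fanconi proteins unhook crosslinked strands, and the mismatch and excision pathways replace wrong or damaged bases. Several of these genes are transcribed mainly in S phase, together with the replication machinery, and end joining is also used by immature lymphocytes to assemble antigen receptor genes.

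Between 13015823 and 18235095 reads were assigned to genes per library. One library stood apart: in WT 2, genes under 1 kb took 17.1% of reads, against 3.11% to 5.01% in the other 5 libraries, and genes of 8 kb or more took 6.74%, against 22.9% to 26.5%. The targeted gene did not separate the groups, since Phf6 had 7.47, 3.67 and 8.02 FPKM in WT 1 to WT 3 and 6.73, 5.50 and 5.11 FPKM in KO 1 to KO 3 (log2 fold change -0.07, adjusted p = 0.893). The overlap came through WT 2. Every KO value lay below WT 1 and WT 3, as in 34.4% of all genes tested. The loxP sites flank a part of the gene, and gene-level values cannot separate reads over that part from reads over the rest. The study also assayed Phf6 mRNA and protein in leukemia cells of both genotypes. In these libraries the deletion was not checked, and every direction given here rests on the labels. The summed level of 12 T-cell markers ran from 1529 to 3528 FPKM in WT and from 1484 to 2136 FPKM in KO, with 1 marker higher and 2 lower in KO. That of 12 neutrophil markers was 33758, 95640 and 6846 FPKM in WT 1 to WT 3 against 93.7 to 290 FPKM in KO, and all 12 were lower in KO past the threshold. Of the monocyte markers, 4 of 6 tested were lower. NK markers gave 1 higher and 4 lower of 5 tested, with Klra8 at 0 in every KO library. Their summed level went the other way, with 191, 125 and 207 FPKM in WT 1 to WT 3 and 566 to 617 FPKM in KO. The B-cell sum was 1020 FPKM in WT 2, 14.9 and 21.2 FPKM in WT 1 and WT 3 and 1.99 to 2.68 FPKM in KO, with 1 of 5 markers tested called lower. The erythroid sum was 68056 FPKM in WT 2, 137 and 525 FPKM in WT 1 and WT 3 and 19.9 to 128 FPKM in KO, with 0 of 8 markers tested called. Of the stromal and endothelial markers, 1 of 6 was tested (Pecam1) and was higher. Kdr, at 0 in every KO library, was too low to be tested. The part of this cell mixture in the values below was not tested, and in bulk RNA fewer cells of a type and less RNA per cell cannot be told apart.

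In KO, 14 members rose and 0 fell. Of the 37 members, 36 passed the filter on low values (at least 1 FPKM in at least 3 libraries), and by limma on log2(FPKM + 1) with Benjamini-Hochberg adjustment over 13393 genes, 14 were higher in KO at an adjusted p under 0.05 (38.9% of those tested) and 0 were lower. Over all genes tested, 13.1% were called higher and 13.3% lower. Of the 14 higher members, 9 had under 3 WT libraries at 1 FPKM and so passed the filter through their KO libraries (Chek1, Brca1, Brca2, Bard1, Blm, Fancb, Fancd2, Fanci and Exo1), as did 16 of all 36. With no filter, 9 of 37 members were higher, where 3613 of 28116 genes were called, 50.1% of them higher. At an unadjusted p under 0.05, 20 members were higher and 1 was lower, where 2596 and 2422 of all 13393 genes tested were. By voom on the recovered reads 13 members were higher and 0 lower, where 3386 of all genes tested were called, 47.8% of them higher. The fold change was above 0 for 30 members and below 0 for 6, against 7180 and 6213 of all 13393 genes tested. The median was 0.89, against 0.09 over all genes tested. In 23 members all 3 KO libraries lay above all 3 WT libraries (26.2% of all genes tested) and in 1 member all lay below (22.9%).

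The counts moved with the libraries and the scaling used. Without WT 2, 22 members were higher (61.1%) and 2 lower, where 26.8% and 25.3% of all genes tested were called, and the median of the members was 0.85. With only WT 1 and WT 3 as reference, KO lay above in 26 members (37.7% of all genes tested) and below in 3 (34.4%). Rescaling FPKM to TPM raised the median of all genes tested from 0.09 to 0.86 and that of the members to 1.82, with 17 members higher and 0 lower. Under TPM, 67.8% of the 3360 calls over all 13393 genes tested were higher in KO, against 49.6% of 3539 in FPKM. Leaving out KO 2 left 5 members higher, and leaving out KO 3 left 6. Over all genes tested the calls then fell from 3539 to 1934 and 2021, of which 48.5% and 47.6% were higher.

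**Figure D1:**
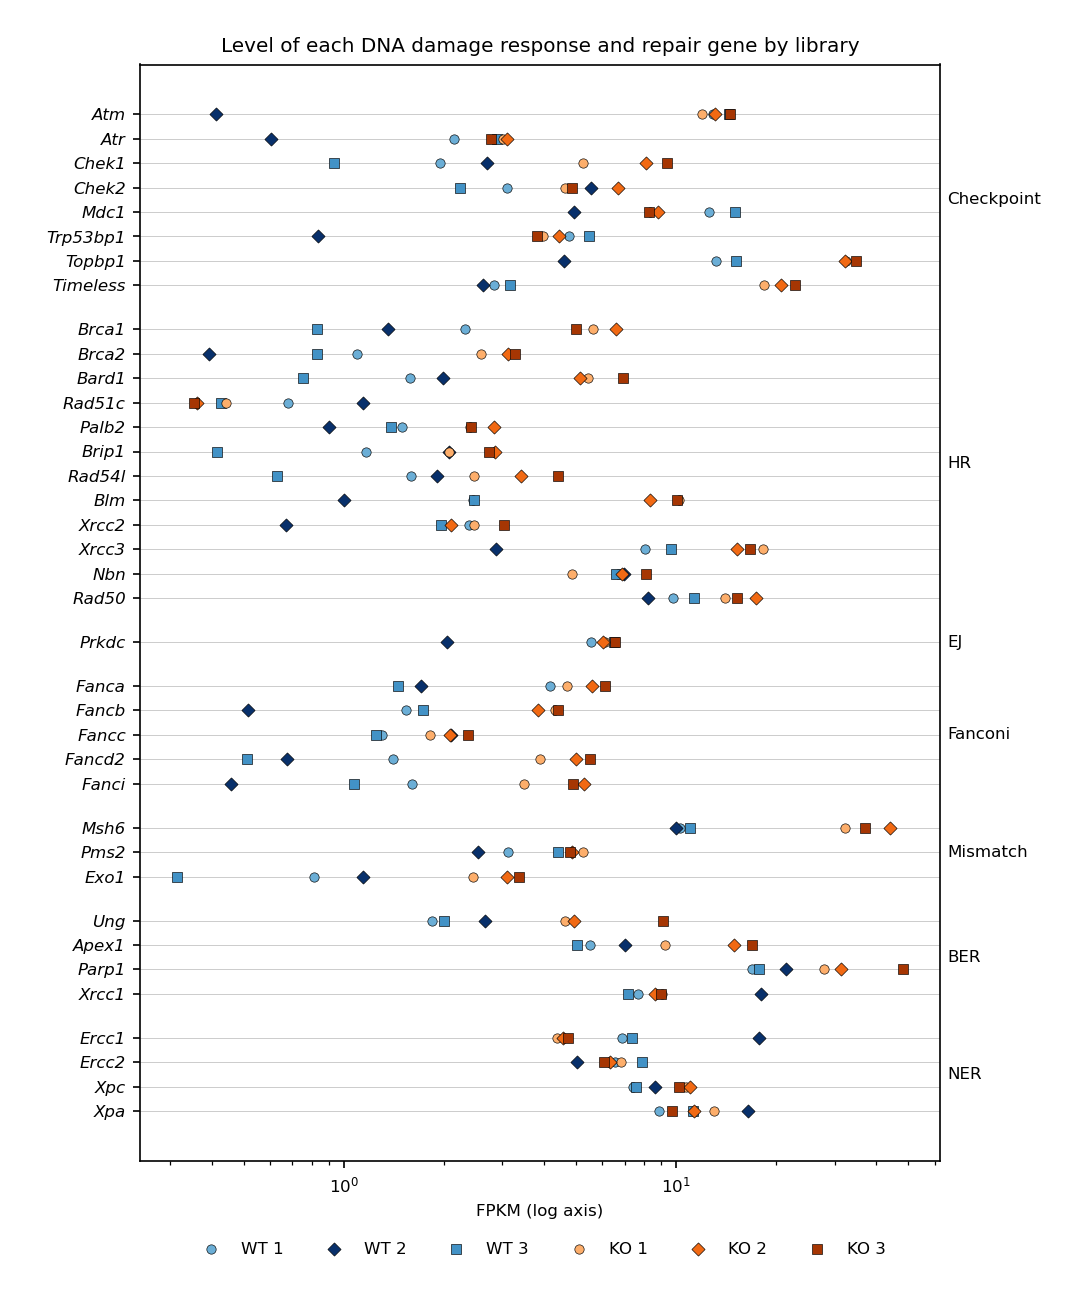
FPKM (log axis) of the 37 members in each library, grouped by pathway; blue points are WT 1 to WT 3 and orange points KO 1 to KO 3, with no averaging (HR, homologous recombination; EJ, end joining; BER and NER, base and nucleotide excision repair). The orange points of Timeless, Msh6 and Topbp1 lie right of every blue point, whereas WT 2 lies far left of all others for Atm and Atr and right of all others for Xrcc1 and Ercc1.

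By pathway, 3 of 8 checkpoint genes, 4 of 11 homologous recombination genes tested, 3 of 5 Fanconi genes, 2 of 3 mismatch genes and 2 of 4 base excision genes were higher. All 4 of these homologous recombination genes and all 3 of these Fanconi genes passed the filter through their KO libraries, as did Chek1 and Exo1. Their shares therefore do not stand apart from that filter. The 1 end-joining member and the 4 nucleotide excision genes gave no call. Among all genes tested, 13.1% were called higher and 13.3% lower. Without WT 2 the higher genes numbered 4 for checkpoint (with 1 lower), 9 for homologous recombination, 3 for Fanconi, 2 for mismatch, 3 for base excision and 1 for nucleotide excision (with 1 lower). Among all genes tested, 26.8% were then called higher and 25.3% lower. The nucleotide excision counts, at 25% each, lay near those shares. Median log2 fold changes were 0.82 for checkpoint, 0.92 for homologous recombination, 1.24 for Fanconi, 1.20 for mismatch, 0.97 for base excision and -0.03 for nucleotide excision genes. Timeless, Blm, Msh6 and Fancd2 stayed past the threshold under every alternative in which they were tested, which was 18 for the first 3 and 17 for Fancd2.

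**Figure D2:**
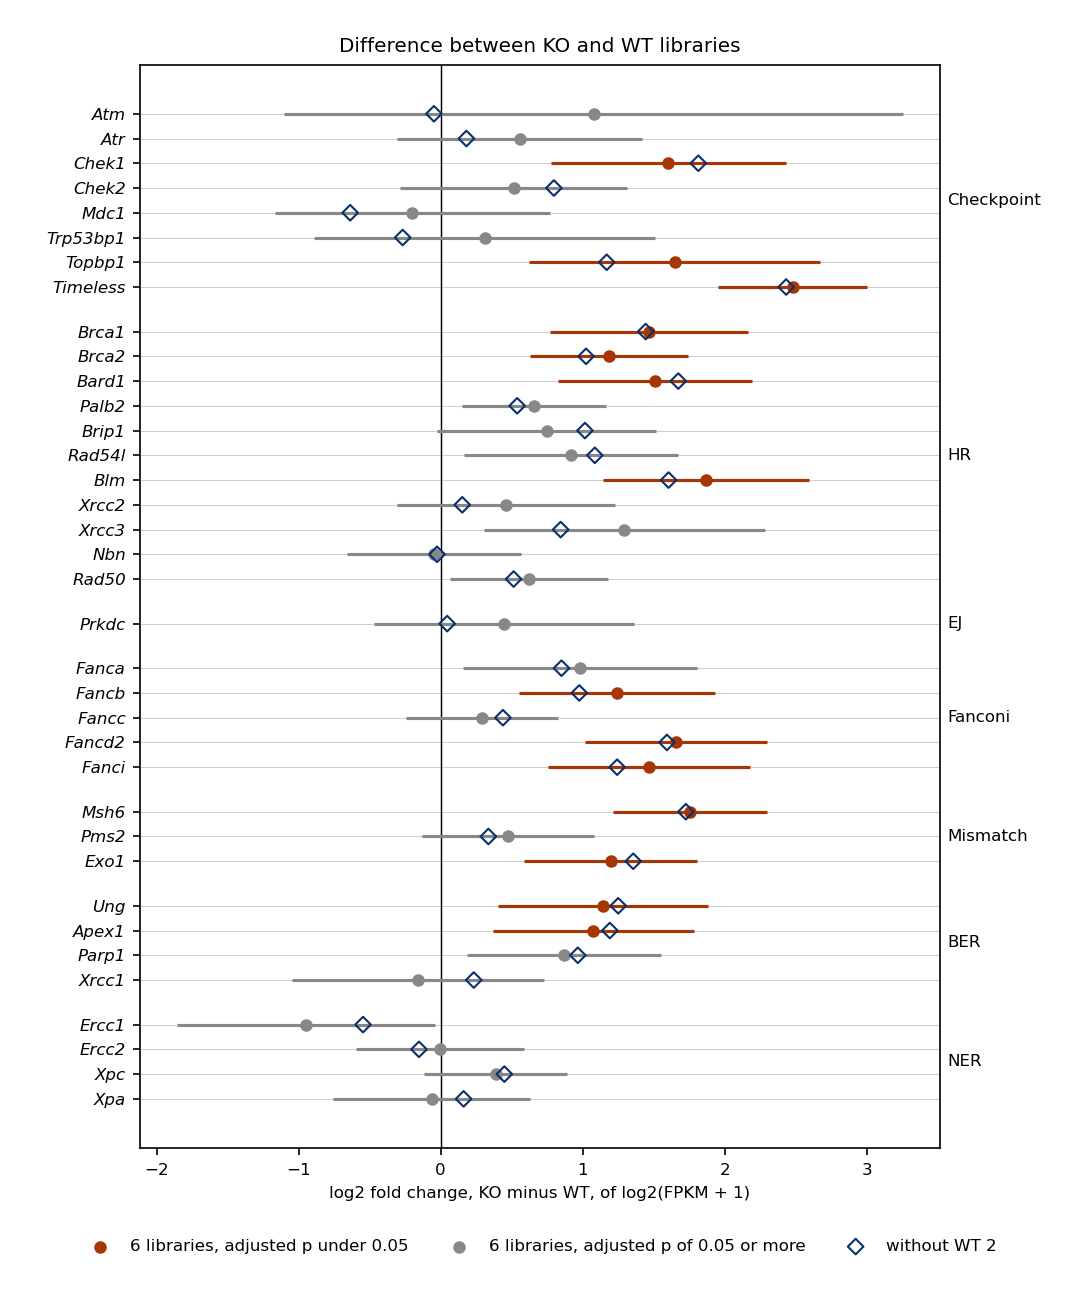
Log2 fold change of KO against WT for the 36 members tested, on the log2(FPKM + 1) scale; filled points are estimates from 6 libraries with 95% limma intervals (brown, adjusted p under 0.05; grey, not), and open diamonds are the estimates without WT 2. Timeless lies furthest right at 2.48, Ercc1 furthest left at -0.95, and the open diamond of Atm lies at -0.05 although its filled point is at 1.08.

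Promoters of the members were searched because many of the genes moved the same way. Of the 37 members, 30 matched the RefSeq promoter table (GRCm38.p6, 250 bases before to 50 after the start). Prkdc, Exo1, Fancd2, Xpc, Nbn, Xrcc2 and Rad50 did not. The letters TTTCCCGC, TTTCGCGC, TTTGCCGC or TTTGGCGC, forms of the sequence read by E2F factors, were looked for on both strands. They occurred in 7 of 30 members (23.3%), in 2.61% of 27025 genes of that table and in 4.87% of the 8667 tested genes with an entry. Of the 12 members with an entry that were higher in KO, 4 held them (Bard1, Brca2, Topbp1 and Msh6), and of the other 18 members 3 did (Chek2, Mdc1 and Rad51c). In the DNA replication list the count was 10 of 20 and in the mitosis list 1 of 16. CCAAT, the box read by NF-Y, was in 18 of 30 members (60%) and in 41.1% of all genes with an entry, with 5 among the 12 higher members and 13 among the other 18. A match describes letters and not binding.

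Shown are the 250 bases before the start of the 3 higher members with a match in that stretch, of Mdc1, which holds a match and did not rise, and of Blm, which rose under every alternative and holds none. Capitals mark the matched letters as they read on the gene's strand, so GCGGGAAA and GCGCGAAA are matches on the opposite strand. They are given 5′ to 3′ from RefSeq GRCm38.p6. Bard1 lies at chr1:71102973-71103222 (minus strand), Brca2 at chr5:150522371-150522620 (plus), Topbp1 at chr9:103305077-103305326 (plus), Mdc1 at chr17:35841248-35841497 (plus) and Blm at chr7:80534999-80535248 (minus).
Bard1: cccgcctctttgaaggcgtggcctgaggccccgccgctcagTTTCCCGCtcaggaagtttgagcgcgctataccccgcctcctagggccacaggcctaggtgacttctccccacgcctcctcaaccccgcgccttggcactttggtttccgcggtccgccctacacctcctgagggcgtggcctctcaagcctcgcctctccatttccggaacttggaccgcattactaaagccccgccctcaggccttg
Brca2: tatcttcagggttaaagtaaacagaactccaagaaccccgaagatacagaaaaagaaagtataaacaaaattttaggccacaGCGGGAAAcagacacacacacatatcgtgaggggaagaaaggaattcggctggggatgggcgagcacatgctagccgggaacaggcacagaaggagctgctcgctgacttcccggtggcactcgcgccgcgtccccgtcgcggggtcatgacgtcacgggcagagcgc
Topbp1: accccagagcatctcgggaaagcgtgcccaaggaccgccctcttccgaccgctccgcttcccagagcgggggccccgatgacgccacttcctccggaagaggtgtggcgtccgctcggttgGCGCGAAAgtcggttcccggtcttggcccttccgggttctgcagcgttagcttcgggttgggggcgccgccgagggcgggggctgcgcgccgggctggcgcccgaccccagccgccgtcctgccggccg
Mdc1: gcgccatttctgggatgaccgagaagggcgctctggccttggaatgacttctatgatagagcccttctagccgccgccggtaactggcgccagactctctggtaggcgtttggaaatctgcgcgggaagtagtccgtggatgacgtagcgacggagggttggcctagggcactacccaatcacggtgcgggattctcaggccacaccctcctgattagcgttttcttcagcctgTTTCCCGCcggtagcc
Blm: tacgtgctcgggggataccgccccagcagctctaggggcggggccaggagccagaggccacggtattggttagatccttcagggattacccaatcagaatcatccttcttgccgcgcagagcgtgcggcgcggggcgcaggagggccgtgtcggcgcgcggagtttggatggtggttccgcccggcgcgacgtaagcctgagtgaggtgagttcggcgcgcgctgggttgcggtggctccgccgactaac
The match starts 209 bases before the start in Bard1, 168 in Brca2, 129 in Topbp1 and 16 in Mdc1.

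Among the checkpoint genes, Timeless, Chek1 and Topbp1 rose. Timeless (ENSMUSG00000039994, chr10:128232065-128252941, plus strand), which together with Tipin holds the fork and passes its stalling on to Chek1, had 2.83, 2.63 and 3.15 FPKM in WT 1 to WT 3 and 18.4, 20.6 and 22.7 FPKM in KO 1 to KO 3. The 3 WT values lay close together, WT 2 included, and far below every KO value. The mean rose from 2.87 ± 0.265 to 20.6 ± 2.14 FPKM (SD, n = 3), a ratio of 7.17 and a log2 fold change of 2.48 (SE 0.22, adjusted p = 0.000704), the highest of the members tested. Over the alternatives the log2 fold change ran from 2.40 to 3.46 and the adjusted p from 2.41e-06 to 0.00874.

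Chek1, the kinase that Atr switches on, had 1.94, 2.70 and 0.933 FPKM in WT and 5.23, 8.10 and 9.39 FPKM in KO. All KO values were above all WT values, with a wide spread in both groups. This gave a log2 fold change of 1.60 (SE 0.34, adjusted p = 0.0166), and the call was lost without KO 2 (adjusted p = 0.0760) or KO 3 (0.0749). Topbp1, the scaffold that activates Atr, had 13.2, 4.61 and 15.1 FPKM in WT and 32.4, 32.2 and 34.7 FPKM in KO. Its KO values were nearly equal, and among the WT values WT 2 lay far under the others. Its log2 fold change of 1.65 (SE 0.43, adjusted p = 0.0320) became 1.17 without WT 2 (adjusted p = 0.000982). It missed the threshold without KO 1, KO 2, KO 3 or WT 1 (adjusted p from 0.0534 to 0.114), under TPM and with no filter on low values.

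The kinases at the head of the pathway were not called, and their WT values depend on WT 2. Atm, which senses double-strand breaks, had 12.9, 0.411 and 14.5 FPKM in WT and 12.0, 13.1 and 14.5 FPKM in KO. In WT 1, WT 3 and KO the level was alike, and only WT 2, with 50 recovered reads against 2053 to 2419 in the other 5 libraries, was low. With 6 libraries the log2 fold change was 1.08 (SE 0.91, adjusted p = 0.438) and -0.05 without WT 2 (adjusted p = 0.797). Atr, which senses single-stranded DNA at stalled forks, had 2.14, 0.605 and 2.89 FPKM in WT and 3.02, 3.10 and 2.77 FPKM in KO (log2 fold change 0.56, adjusted p = 0.311, and 0.18 without WT 2). Here too WT 2 was the lowest and the groups overlapped.

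The adaptors that gather at breaks had the same dependence. Mdc1, which binds phosphorylated H2AX, had 12.6, 4.94 and 15.0 FPKM in WT and 8.36, 8.82 and 8.30 FPKM in KO. The KO values lay between WT 2 and the other WT libraries. Its log2 fold change was -0.20 (adjusted p = 0.760) with 6 libraries, -0.64 without WT 2 (adjusted p = 0.0110) and 0.58 under TPM, which is below the 0.86 of all genes under that scaling. Trp53bp1, which protects broken ends from resection, had 4.76, 0.835 and 5.45 FPKM in WT and 3.98, 4.43 and 3.80 FPKM in KO. WT 2 was again the lowest, and without it every KO value was below WT (log2 fold change -0.27, adjusted p = 0.184, against 0.31 and 0.697 with 6 libraries). Chek2, the kinase that Atm activates, had 3.09, 5.56 and 2.24 FPKM in WT and 4.63, 6.67 and 4.84 FPKM in KO. The groups overlapped through WT 2, which was here the highest WT value. It had a log2 fold change of 0.51 (adjusted p = 0.312), and 0.80 without WT 2 (adjusted p = 0.0218).

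In homologous recombination, 10 of 11 members tested had a log2 fold change above 0, as did 7180 of all 13393 genes tested. Among these 11, Brca1, Brca2, Bard1, Blm, Palb2, Brip1, Rad54l and Xrcc2 passed the filter through their KO libraries. The count therefore does not stand apart from that filter. The Brca1 complex rose as a pair: Brca1, a ubiquitin ligase that starts recombination, had 2.31, 1.36 and 0.832 FPKM in WT and 5.61, 6.59 and 4.98 FPKM in KO. Bard1, its obligate partner, had 1.58, 1.98 and 0.752 FPKM in WT and 5.42, 5.13 and 6.93 FPKM in KO. In both genes every KO value was above every WT value and WT 3 was the lowest. Their estimates on the log2 scale were 1.46 (SE 0.29, adjusted p = 0.0123) for Brca1 and 1.51 (SE 0.28, adjusted p = 0.0102) for Bard1. Brca1 missed the threshold without KO 1 (adjusted p = 0.0533) or KO 2 (0.0615), and Bard1 without KO 3 (0.0504).

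Brca2, a mediator of strand exchange, had 1.10, 0.393 and 0.828 FPKM in WT and 2.59, 3.11 and 3.26 FPKM in KO. The groups did not overlap, and WT 2, with 63 reads, was the lowest. The log2 fold change was 1.19 (SE 0.23, adjusted p = 0.0117), with an adjusted p of 0.0526 without KO 2. Blm (ENSMUSG00000030528, chr7:80454733-80535119, minus strand), the helicase that dissolves joined chromatids, had 2.45, 0.998 and 2.46 FPKM in WT and 10.2, 8.36 and 10.1 FPKM in KO. Its KO mean of 9.55 ± 1.03 FPKM was 4.85 times the WT mean of 1.97 ± 0.842 FPKM (SD, n = 3). This corresponds to a log2 fold change of 1.87 (SE 0.30, adjusted p = 0.00568), which stayed between 1.58 and 2.84 over the alternatives.

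Palb2, Brip1, Rad54l, Xrcc3 and Rad50 had every KO value above every WT value, as in 26.2% of all genes tested, and missed the threshold. Palb2, which joins Brca1 to Brca2, had 0.904 to 1.49 FPKM in WT and 2.39 to 2.84 FPKM in KO (log2 fold change 0.66, adjusted p = 0.0633). Brip1, a helicase bound by Brca1, had 0.416 to 2.07 FPKM in WT and 2.07 to 2.85 FPKM in KO, with WT 2 just under KO 1 (0.75, adjusted p = 0.144). Rad54l, a DNA-dependent motor protein, had 0.628 to 1.91 FPKM in WT and 2.46 to 4.43 FPKM in KO (0.92, adjusted p = 0.0765). Without WT 2 these 3 passed the threshold, with log2 fold changes of 0.54 (adjusted p = 0.0294) for Palb2, 1.02 (0.0147) for Brip1 and 1.09 (0.0224) for Rad54l. In that fit 26.8% of all genes tested were called higher, and these 3 had passed the filter through their KO libraries. Xrcc3, which acts in recombination and at stalled forks, had 8.08, 2.88 and 9.67 FPKM in WT and 15.3 to 18.2 FPKM in KO. WT 2 was the lowest by far, and the log2 fold change was 1.29 (adjusted p = 0.0626) with it, 0.84 (0.00516) without it and 1.57 (0.0462) without WT 3. Rad50, of the complex that holds broken ends, had 8.21 to 11.3 FPKM in WT and 14.0 to 17.3 FPKM in KO (0.62, adjusted p = 0.0997, and 0.0307 without WT 2).

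Xrcc2, which acts early in recombination, had 2.39, 0.669 and 1.95 FPKM in WT and 2.46, 2.11 and 3.04 FPKM in KO, with overlapping groups (log2 fold change 0.46, adjusted p = 0.346). Nbn, the partner of Rad50 that brings Atm to breaks, had 6.57 to 6.95 FPKM in WT and 4.85 to 8.14 FPKM in KO. The WT values of Nbn lay within the KO range, and its log2 fold change of -0.04 had a 95% interval from -0.66 to 0.57 (adjusted p = 0.918) and turned to 0.74 under TPM, below the 0.86 of all genes. Rad51c, the partner of Xrcc3, was the member under the filter. It had 0.680, 1.14 and 0.427 FPKM in WT and 0.441, 0.362 and 0.354 FPKM in KO, which rest on 29 to 59 reads and 25 to 36 reads per library. The groups overlapped, and without the filter its log2 fold change was -0.32 (adjusted p = 0.342).

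Prkdc, the catalytic subunit of the DNA-dependent kinase and the only end-joining gene among the members, had 5.54, 2.04 and 6.51 FPKM in WT and 6.13, 6.02 and 6.57 FPKM in KO. Apart from WT 2 the libraries were alike. On the log2 scale KO exceeded WT by 0.45 (95% interval from -0.47 to 1.36, adjusted p = 0.444) and 0.05 without WT 2.

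In the Fanconi pathway the substrate pair rose. Fancd2 (ENSMUSG00000034023, chr6:113531682-113597017, plus strand), which is monoubiquitinated at crosslinks, had 1.40, 0.675 and 0.512 FPKM in WT and 3.89, 4.98 and 5.50 FPKM in KO. The highest WT value was far below the lowest KO value. Its log2 fold change was 1.66 (SE 0.27, adjusted p = 0.00566), with means of 0.864 ± 0.475 and 4.79 ± 0.824 FPKM (SD, n = 3). Fanci, its partner on DNA, had 1.60, 0.457 and 1.07 FPKM in WT and 3.49, 5.28 and 4.90 FPKM in KO. No WT value reached the KO range, and the log2 fold change was 1.47 (SE 0.29, adjusted p = 0.0130), lost without KO 2 (0.0606) or KO 3 (0.0572).

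Of the core complex that ubiquitinates this pair, Fancb had 1.54, 0.513 and 1.73 FPKM in WT and 4.32, 3.83 and 4.41 FPKM in KO. Fancb rose by 1.24 on the log2 scale (SE 0.29, adjusted p = 0.0215), a call lost without any 1 of the KO libraries (adjusted p from 0.0736 to 0.0836) and with no filter on low values. Its lowest count, in WT 2, was 18 reads. Fanca, a scaffold of the same complex, had 4.19, 1.71 and 1.45 FPKM in WT and 4.69, 5.58 and 6.10 FPKM in KO, with WT 1 close to KO 1 (0.98, adjusted p = 0.0826, and 1.32 without WT 1, adjusted p = 0.0257). Fancc had 1.30, 2.10 and 1.25 FPKM in WT and 1.82, 2.09 and 2.37 FPKM in KO (0.29, adjusted p = 0.394). WT 2 of Fancc lay inside the KO range.

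Msh6 (ENSMUSG00000005370, chr17:87975050-87990883, plus strand), which recognises mismatched bases, had 10.3, 9.96 and 11.0 FPKM in WT and 32.2, 44.1 and 37.1 FPKM in KO. Its WT values differed by little, WT 2 included, and all KO values were well above them. The mean rose from 10.4 ± 0.550 to 37.8 ± 6.02 FPKM (SD, n = 3). This is a log2 fold change of 1.76 (SE 0.23, adjusted p = 0.00255), and it stayed between 1.64 and 2.63 over the alternatives. Exo1, the exonuclease that removes the mismatched strand, had 0.815, 1.14 and 0.314 FPKM in WT and 2.44, 3.11 and 3.37 FPKM in KO. The groups were apart at a low level, and the log2 fold change was 1.20 (SE 0.25, adjusted p = 0.0157), lost without KO 2 (0.0645) or KO 3 (0.0636), with no filter and after removal of the length trend (0.0747). Pms2, which nicks that strand, had 3.13, 2.53 and 4.40 FPKM in WT and 5.24, 4.86 and 4.80 FPKM in KO. The KO values were above the WT values by a small margin (0.48, adjusted p = 0.222).

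In base excision repair Ung and Apex1, which act early, rose. Ung, which cuts uracil out of DNA, had 1.85, 2.66 and 2.01 FPKM in WT and 4.64, 4.91 and 9.10 FPKM in KO. KO 3 was far above the other KO libraries, and all KO values were above WT. Its log2 fold change was 1.14 (SE 0.31, adjusted p = 0.0362). The call was lost without any 1 library other than WT 2 (adjusted p from 0.0744 to 0.111), with no filter on low values and with a replicate block (0.0854). Apex1, which cleaves the strand at the empty site, had 5.51, 7.00 and 5.04 FPKM in WT and 9.29, 15.0 and 16.9 FPKM in KO. The groups did not overlap, and KO 1 was the lowest of KO. Apex1 rose by 1.07 on the log2 scale (SE 0.29, adjusted p = 0.0387). This call was lost without KO 2, KO 3, WT 1 or WT 3 (adjusted p from 0.0954 to 0.160). It was also lost with no filter, with voom (0.0559) and with a replicate block (0.0859).

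Parp1, which marks strand breaks with poly(ADP-ribose), had the highest mean level of the members in WT, with 16.9, 21.4 and 17.8 FPKM, and 27.9, 31.3 and 48.2 FPKM in KO. All KO values were higher, with KO 3 above the rest, but the log2 fold change of 0.87 missed the threshold (adjusted p = 0.0674, and 0.0188 without WT 2). Xrcc1, the scaffold that brings the ligase to the break, had 7.70, 18.1 and 7.15 FPKM in WT and 9.08, 8.63 and 8.99 FPKM in KO. WT 2 was high and every other value alike. The log2 fold change was -0.16 (adjusted p = 0.790) with 6 libraries, 0.23 without WT 2 (adjusted p = 0.173) and 0.65 under TPM, again below the 0.86 of all genes.

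None of the 4 nucleotide excision members passed the threshold in the main limma fit, although Ercc1 had an unadjusted p under 0.05. With array weights, also on 6 libraries, Ercc1 was lower (-0.52, adjusted p = 0.00787) and Xpc higher (0.46, adjusted p = 0.00658). That setting called 8461 of all 13393 genes tested. Ercc1, the partner of the nuclease that cuts 5′ of a lesion, had 6.87, 17.7 and 7.34 FPKM in WT and 4.37, 4.55 and 4.73 FPKM in KO. It was the member in which every KO value lay below every WT value, and WT 2 was far above the other WT libraries. The log2 fold change was -0.95 (SE 0.38, unadjusted p = 0.0430, adjusted p = 0.120), and -0.55 without WT 2 (adjusted p = 0.0185), with a range over the alternatives from -1.17 to -0.23. Ercc2, a helicase of TFIIH, had 5.02 to 7.91 FPKM in WT and 6.05 to 6.81 FPKM in KO (log2 fold change -0.0034, 95% interval from -0.60 to 0.59). Xpa, which verifies the lesion, had 8.86, 16.5 and 11.2 FPKM in WT and 13.0, 11.3 and 9.74 FPKM in KO (-0.06, 95% interval from -0.76 to 0.63). The groups overlapped in both genes, and under TPM they had 0.77 and 0.75, below the 0.86 of all genes. Xpc, which finds distorted helix, had 7.42, 8.62 and 7.59 FPKM in WT and 10.7, 11.0 and 10.2 FPKM in KO. Its groups were apart by a narrow margin (0.39, adjusted p = 0.231, and 0.45 without WT 2, adjusted p = 0.0269).

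The position of WT 2 varied with gene length. Against the mean of WT 1 and WT 3 on the log2(FPKM + 1) scale, the median difference of WT 2 over all genes tested was 0.20 for genes under 2000 bases and -1.03 for 922 genes of 10000 bases or more. Of the members, 6 are 10000 bases or longer (Atm, Atr, Trp53bp1, Topbp1, Brca2 and Prkdc), and all 6 were lower in WT 2, by -0.49 to -3.38 with a median of -1.32. Across genes, which are not independent, Spearman's rho of that difference with length was -0.43 over the 36 members tested and -0.24 over all genes tested. Shorter members were on either side, with Ercc1 and Xrcc1 high and Xrcc3 low in WT 2.

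**Figure D3:**
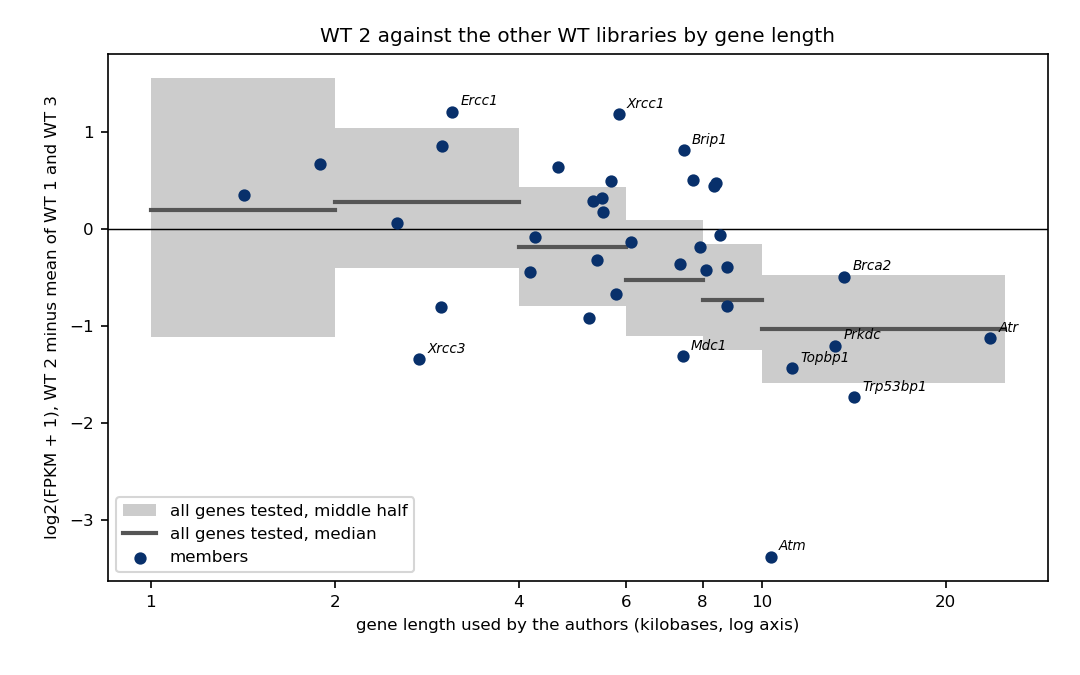
Difference in log2(FPKM + 1) between WT 2 and the mean of WT 1 and WT 3 against the gene length used by the authors (kilobases, log axis); dots are the 36 members tested, grey bars the median and grey bands the 25th to 75th percentile of all genes tested in 6 length classes, of which the first holds all genes under 2 kb. The grey bars stand at 0.20 and 0.28 in the first 2 classes and fall to -1.03 in the last, and Atm lies lowest at -3.38.

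The other genes of each pathway, taken from lists written for this comparison, gave 24 higher (22.0%) and 2 lower of 109 tested (median log2 fold change 0.52), where 13.1% and 13.3% of all genes were called. Without WT 2 they gave 48 higher (44.0%) and 9 lower, where 26.8% and 25.3% of all genes were called. Companions that passed the filter through their KO libraries were not counted. Of 19 checkpoint companions 6 were higher and 0 lower (median 0.49), those with the smallest p being Clspn, the Chek1 adaptor, from 1.91 to 11.9 FPKM in the mean (log2 fold change 2.16), Tipin, the partner of Timeless, from 9.59 to 36.7 FPKM (1.85), and Wee1, a kinase that holds cells before mitosis, from 2.76 to 9.24 FPKM (1.45). Of 22 homologous recombination companions tested 7 were higher and 0 lower (median 0.57), led by Rad54b (1.59), Mms22l (1.79) and Gen1 (1.14). Fanconi companions gave 2 of 12 (median 0.64), with Usp1, which removes ubiquitin from Fancd2, at 1.54 and Rfwd3 at 0.86, while Fancm at 1.10 had an adjusted p of 0.0551. Mismatch companions gave 2 of 9 (median 0.72), Msh3 at 1.28 and Mlh3 at 0.96, and Rfc1 at 0.78 had an adjusted p of 0.0542. Of 17 base excision companions tested, 2 were higher (11.8%) and 1 lower (median 0.41), the higher ones being the glycosylases Neil3 at 2.09 and Tdg at 1.76. Nucleotide excision companions gave 2 of 20 (10%, median 0.34), the TFIIH subunit Gtf2h4 at 1.92 and the Cdk7 cyclin Ccnh at 1.02, and Mnat1 at 0.77 did not pass (adjusted p = 0.0752). With 6 libraries the base and nucleotide excision shares lay under the 13.1% of all genes. Without WT 2 they were 47.1% and 35%, above the 26.8% of all genes. Without WT 2 the higher and lower companions numbered 9 and 2 for checkpoint, 10 and 1 for homologous recombination, 4 and 1 for Fanconi, 6 and 0 for mismatch, 8 and 1 for base excision and 7 and 2 for nucleotide excision. Clspn, Tipin, Wee1, Rad54b, Mms22l and Neil3 stayed past the threshold under every alternative in which they were tested. Gen1 lost it without KO 2, and Usp1, Rfwd3, Msh3, Mlh3, Tdg, Gtf2h4 and Ccnh each lost it without any 1 of the KO libraries.

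End joining held the extremes. Of its 10 companions 3 were higher and 1 lower, with a median of 0.13. Lig4, the ligase of this pathway, had 0.760, 1.16 and 0.744 FPKM in WT and 30.0, 26.5 and 26.0 FPKM in KO. These rest on 60 to 71 reads per WT library and 2167 to 2911 per KO library. Lig4 rose by 3.92 on the log2 scale (SE 0.23, adjusted p = 0.000271), and the groups did not come near each other. Xrcc6, the Ku70 subunit that encircles broken ends, had 7.21, 27.3 and 8.48 FPKM in WT and 244, 256 and 238 FPKM in KO (log2 fold change 4.24, SE 0.49, adjusted p = 0.0018). It overlaps Desi1 on the other strand, and reads of the 2 cannot be told apart if strand was not used. Poll, a gap-filling polymerase, had 4.27, 13.8 and 4.39 FPKM in WT and 0.208, 0.301 and 0.534 FPKM in KO, on 9 to 20 reads per KO library (log2 fold change -2.48, SE 0.44, adjusted p = 0.00792). Lig4 passed the filter through its KO libraries and Poll through its WT libraries, the group where each was high. Lig4, Xrcc6 and Poll also stayed past the threshold under every alternative in which they were tested.

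Genes of DNA replication and mitosis were counted for comparison. Of 25 replication genes 9 were higher and 0 lower (median log2 fold change 1.18), and of 20 mitotic genes 10 were higher and 0 lower (median 1.57). Without WT 2 these counts were 24 and 20, with medians of 1.45 and 2.08. The median level of the replication list was 3.07, 3.85 and 2.70 in WT 1 to WT 3 and 3.96, 4.21 and 4.39 in KO 1 to KO 3, on the log2(FPKM + 1) scale. WT 2 thus lay close to KO 1, whereas for the Fanconi members it was the lowest, with medians of 1.35, 0.744 and 1.17 in WT and 2.29, 2.58 and 2.56 in KO.

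When the replication median of each library was subtracted from each member, 4 members kept all KO values above all WT values, 7 had them below and 25 overlapped. After the same subtraction, 4.36% of all genes tested had every KO value above and 44.1% had every KO value below. Those above were Timeless, Chek1, Bard1 and Fancd2. For Timeless the difference was -1.13, -1.99 and -0.64 in WT and 0.32, 0.23 and 0.18 in KO, so that its level passed the replication median in KO and not in WT. Below were Chek2, Brip1, Nbn, Fancc, Xrcc1, Ercc1 and Xpa. No test was made of these differences, and whether the change in replication genes plays a part in that of the repair genes was not tested.

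**Figure D4:**
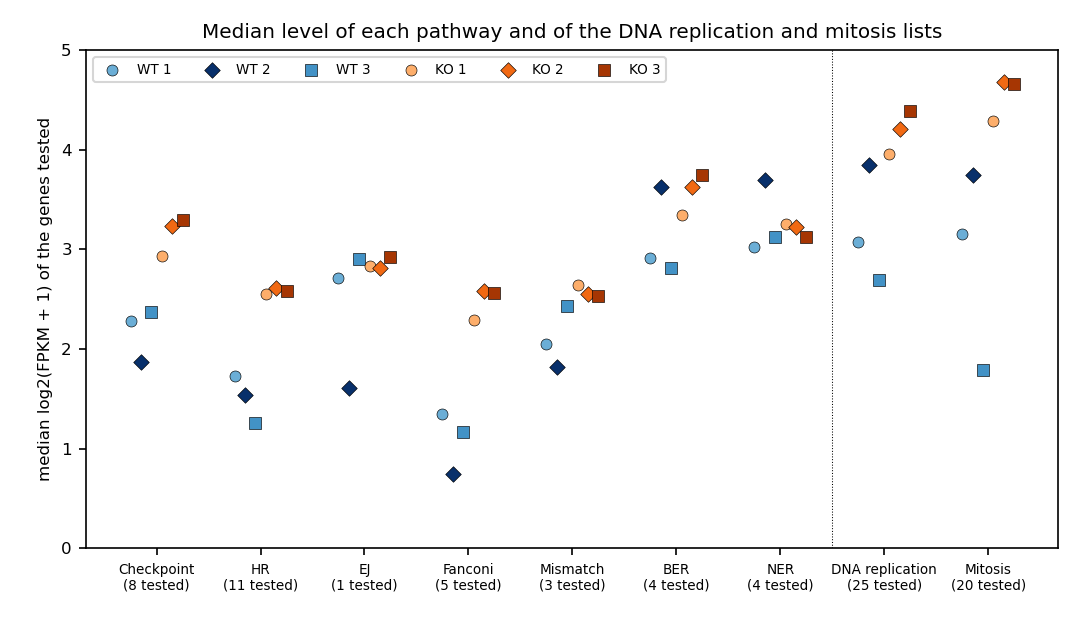
Median log2(FPKM + 1) of the genes tested in each pathway and, right of the dotted line, in the DNA replication and mitosis lists, with 1 point per library (blue WT, orange KO). For homologous recombination and Fanconi genes the 3 KO points lie above the 3 WT points, while for nucleotide excision genes WT 2, at 3.70, lies above all others.

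Several values are uncertain because genes share sequence positions, and use of strand in the authors' counting is not given in the sources used here. Trp53bp1 overlaps Tubgcp4, Rad54l overlaps Lrrc41, Xrcc3 overlaps Klc1, Fanca overlaps Zfp276, Fancc overlaps 2010111I01Rik, Fanci overlaps Polg, Apex1 overlaps Pip4p1, Ercc1 overlaps Cd3eap, Ercc2 overlaps Klc3 and Xpa overlaps Ncbp1, each on the opposite strand. For Msh6 the overlap with Fbxo11 is 25 bases. Among overlaps with genes that are not protein-coding, Blm shares 468 bases with the pseudogene Ndufab1-ps (mean 9.35 FPKM) and Atr 9737 bases with Gm16794 (1.88 FPKM), both on the opposite strand. Fancc shares 7547 bases with Gm16907 (6.04 FPKM) on its own strand, where use of strand would not separate their reads.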

How the data were processed

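BM RNA of 3 Phf6 WT and 3 Phf6 KO samples, all with JAK3 M511I, was sequenced with paired ends. Per the labels, libraries were made with a NEBNext Ultra kit from total RNA, and the submitters' processing notes name HISAT2 2.0.5, featureCounts 1.5.0-p3 and GRCm38 (mm10). Whether strand was used and which annotation release was taken are not given in the sources used here. The authors deposited FPKM (fragments scaled to gene length and library size) with the gene length and position. All values (100%) came out as whole reads within 0.01, so reads per gene were recovered, from 13015823 to 18235095 per library. The authors' library size was 0.645 to 1.21 times this total. The precision of low genes is limited by these reads, and more deeply read genes have less counting error.

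FPKM were tested as log2(FPKM + 1) with limma 3.58.1 (R 4.3.3, eBayes with trend, two-sided, no covariate), over 13393 genes with at least 1 FPKM in at least 3 of 6 libraries, with Benjamini-Hochberg adjustment and a threshold of 0.05. A fold change on this scale understates the change of low genes. The study used a model for counts. Here the main test was on the deposited FPKM, and the recovered reads were tested with voom as an alternative. Alternatives numbered 18: pseudocounts of 0.1 and 0.5, no filter, quantile and median-of-ratios scaling, a minimum mean FPKM of 5, TPM, removal of the length trend, eBayes without trend, array weights, a replicate block, voom on recovered reads, and each library left out.

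Groups were taken from the genotype labels. Their gene symbol ends in a digit that rises within each group, and the design text names Phf6. The members and lists were chosen with earlier results of these data known. All 37 members are named, and of each other list up to 3 genes with the smallest p. The values of a single gene in these lists are not reported here.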

Additional observations from a re-analysis of the deposited data

How the results depend on the processing

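The 14 members past the threshold became 26 with array weights (24 higher, 2 lower), 5 with a mean FPKM of at least 5 (5 higher, where 17 members were tested) and 9 with no filter on low values (9 higher, 37 tested). Leaving out 1 library gave 5 to 24 members past the threshold, 5 to 22 higher and 0 to 2 lower, the lowest without KO 2 and the highest without WT 2. A replicate block gave 12 (12 higher, 0 lower), without Ung (adjusted p = 0.0854) and Apex1 (0.0859). The labels name no pairing of the samples. Deviations of same-numbered libraries correlated at 0.095, 0.10 and -0.15, and not every library correlated best with its own number. With so few libraries these values cannot decide whether samples were paired. Over all genes the block gave 2676 calls against 3539, array weights 8461, leaving out WT 2 6967 and leaving out KO 2 1934. Of 8296 genes with a mean FPKM of at least 5, 1837 were called, and with no filter 3613 of 28116. Over the members and their alternatives, 539 values kept direction and side of the threshold, 36 lost the threshold and 30 gained it, and 24 changed sign, none of them in a member called in the main fit. The cause was not tested for any of these.

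Changes of sign came with TPM in Mdc1 (0.58), Nbn (0.74), Xrcc1 (0.65), Ercc2 (0.77) and Xpa (0.75), all below the median of 0.86 that all genes had under this scaling; with array weights in Trp53bp1 (-0.17), Nbn (0.0020), Xrcc1 (0.18) and Xpa (0.26); with removal of the length trend in Nbn (0.10), Ercc2 (0.038) and Xpa (0.11); and with quantile normalization in Xpa (0.032). Without WT 2 they came in Atm (-0.047), Trp53bp1 (-0.27), Xrcc1 (0.23) and Xpa (0.16). Other left-out libraries turned Mdc1 (0.078, without WT 3), Nbn (0.13, without KO 1), Xpa (0.033, without KO 3) and Ercc2 (0.0040 without KO 2, 0.030 without KO 3, 0.012 without WT 1 and 0.13 without WT 3). Over left-out libraries the log2 fold change ran up to 1.68 in Atm and 0.64 in Trp53bp1, and down to -0.64 in Mdc1, -0.19 in Nbn, -0.38 in Xrcc1 and -0.25 in Xpa. Low depth limits Rad51c, with 25 to 59 reads per library, and Fancb, with 18 reads in WT 2.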
